A study of Mus musculus with 12 samples.

Results

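The antioxidant and thiol redox genes were taken as a list of 34 genes that remove superoxide and peroxide, run the glutathione and thioredoxin systems or regulate them, each matched by its symbol in a count table of 49492 genes. All 34 were found, and all 34 were among the 15542 genes that passed the filter on low counts; the smallest count of any of them in any library was 31, for Gpx7. RNA was sequenced from mouse left ventricle in 12 libraries, 3 in each of 4 groups. WT_NS and WT_TAC are wild-type hearts without and with TAC (transverse aortic constriction, in which a suture around the aortic arch makes the left ventricle pump against a raised pressure). Alox5ko_NS and Alox5ko_TAC are the same treatments with Alox5 knocked out. NS is not spelled out in the labels and is used here for the group without TAC. The label does not say whether NS hearts had a sham operation. If they had none, the constriction and the surgery around it cannot be told apart. The design text speaks of a cardiac deficiency of Alox5, while the sample labels give the genotype alone and name no promoter, Cre or floxed allele. Strain, age, time after surgery and the number of animals behind a library are not given in the sources used here.

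As background, superoxide leaks from mitochondrial respiration and from oxidases. Superoxide dismutases turn it into hydrogen peroxide. Catalase, glutathione peroxidases and peroxiredoxins reduce the peroxide. The electrons come from glutathione or from thioredoxin, which are recharged by reductases that use NADPH. Nfe2l2 (the transcription factor Nrf2) raises many of these genes when its inhibitor Keap1 is oxidised, by binding antioxidant response elements. The heart beats without rest on mitochondrial ATP, and pressure overload is a textbook setting for oxidative stress in it.

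Upstream sequence is shown first for 3 of the 4 members that changed with TAC, Sod2, Nqo1 and Gpx1, because these are the stretches in which a shared motif would be looked for. RefSeq promoter windows (GRCm38.p6, from 250 bases before to 50 bases after a transcript start) matched 29 of the 34 members; Sod3, the other member that changed, was among the 5 without a match. The stretch before the deposited gene start is printed on the strand of the gene for Sod2 at chr17:13007589-13007838 (plus strand), Nqo1 at chr8:107403207-107403455 (minus strand) and Gpx1 at chr9:108338830-108338902 (plus strand, short because its deposited gene start lies inside the window). Capitals mark GC boxes (GGGCGG or its reverse complement CCGCCC), a motif that was picked after the windows had been seen.
Sod2: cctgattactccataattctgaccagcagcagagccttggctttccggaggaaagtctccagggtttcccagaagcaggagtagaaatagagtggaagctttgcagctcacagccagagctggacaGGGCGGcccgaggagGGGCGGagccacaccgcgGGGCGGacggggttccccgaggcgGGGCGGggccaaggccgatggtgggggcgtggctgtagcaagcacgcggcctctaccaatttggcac
Nqo1: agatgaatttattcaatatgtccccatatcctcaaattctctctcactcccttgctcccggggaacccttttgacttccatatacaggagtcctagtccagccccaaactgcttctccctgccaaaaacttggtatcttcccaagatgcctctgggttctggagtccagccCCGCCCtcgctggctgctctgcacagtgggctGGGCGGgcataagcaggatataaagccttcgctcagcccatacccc
Gpx1: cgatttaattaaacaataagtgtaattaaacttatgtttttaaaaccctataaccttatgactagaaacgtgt
Sod2 held 4 GC boxes in 250 bases at 63.6% G and C, Nqo1 held 2 in 249 bases at 53.4%, and the 73 bases of Gpx1 held 0 at 24.7%. These 73 bases are only the upstream end of the Gpx1 window. The whole window did hold a GC box, just past its transcript start. Over whole windows, 25 of the 29 member genes (86.2%) had a GC box in at least 1 window, against 38.2% of all 27025 genes in the promoter table. By window the shares were 73.7% of 38 and 35.7% of 32851. All members passed the low-count filter, while the promoter table was not limited to genes that did. The shares of this motif and the next are therefore not matched for expression, and no excess is read from them. The core of the antioxidant response element, TGACNNNGC or GCNNNGTCA on either strand, was in none of the 3 stretches. They start at most 250 bases before a transcript start, so an element farther upstream would not be seen. It was found in windows of 6 of the 29 members (20.7%), Gclm, Nfe2l2, Prdx1, Sod1, Srxn1 and Txnrd1, against 14% of all genes. The 5 matches before a transcript start are printed with 10 bases on each side and the core in capitals, because this is the motif that Nfe2l2 is known to bind. They lie at chr3:122245413-122245441 (Gclm), chr2:75704885-75704913 (Nfe2l2, minus strand), chr4:116685456-116685484 (Prdx1), chr16:90220696-90220724 (Sod1) and chr10:82859104-82859132 (Txnrd1).
Gclm: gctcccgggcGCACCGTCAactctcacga
Nfe2l2: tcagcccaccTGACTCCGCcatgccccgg
Prdx1: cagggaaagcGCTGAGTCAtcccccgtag
Sod1: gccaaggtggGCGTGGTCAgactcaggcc
Txnrd1: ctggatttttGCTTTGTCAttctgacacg
The match in Srxn1 lay past its transcript start. A match describes letters in these windows and is not evidence of binding.

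Library totals ran from 20889431 to 27311196 counts. Alox5, the enzyme that starts leukotriene synthesis, was read at 9.56 to 13.9 CPM (counts divided by TMM-adjusted library size) in the 6 WT libraries and at 0.934 to 1.46 CPM in the 6 Alox5ko libraries, as the labels say. It differed in Alox5ko by -3.40 on the log2 scale without TAC (adjusted p = 1.8e-09) and by -3.28 with TAC (adjusted p = 5.37e-09). All p-values for genes come from edgeR's quasi-likelihood F test, adjusted by Benjamini-Hochberg over all 15542 genes, with a gene called at an adjusted p under 0.05. Nothing in the labels ties each library to its own animal, and the p-values then reflect only how far these libraries spread, which may be technical. A library named Alox5ko_NS 3 stood apart: mitochondrially encoded genes took 21.4% of its counts against 14.6% to 18.7% elsewhere. Its summed cardiomyocyte markers were the lowest of all libraries at 151900 CPM against 172200 to 186800 CPM in the 3 groups other than its own. Marker sums, here and below, are CPM of the plain library total, without TMM factors. They are not on the scale of the gene values. The TMM factor of Alox5ko_NS 3 was the lowest, at 0.945, so this gap would be smaller on the TMM scale. Alox5ko_TAC 2 was also left out in checks, because earlier results of these data had it apart in its fetal genes, whose values are not shown here. Defining markers of the labelled tissue were present in every library. In bulk tissue, fewer cells of a type and less RNA per cell cannot be told apart.

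The members covered a wide range of levels, which were compared between genes as RPKM, counts divided by gene length and by the library's total. Idh2, the mitochondrial isocitrate dehydrogenase that makes NADPH, was the most abundant at a mean of 513 RPKM and alone made up 33.2% of the summed RPKM of the 34 members. Sod1, the cytosolic superoxide dismutase, followed at 268 RPKM. Prdx5, a peroxiredoxin found in mitochondria and peroxisomes, stood at 115 RPKM, Gpx4, which reduces lipid peroxides, at 108 RPKM and Sod2, the mitochondrial manganese superoxide dismutase, at 103 RPKM. These 5 genes together made up 71.7% of the sum. Catalase (Cat) stood at 56.4 RPKM and Txnip, a protein that binds and inhibits thioredoxin, at 47.3 RPKM.

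Within each role the most and least abundant genes were far apart. Among the superoxide dismutases Sod3, the secreted form, was lowest at 9.12 RPKM. Among peroxidases that use glutathione or sit beside them, Gpx7 of the endoplasmic reticulum was lowest at 1.46 RPKM. Among the peroxiredoxins, Prdx4 of the secretory pathway was lowest at 1.19 RPKM. In the thioredoxin system Txnrd2, the mitochondrial thioredoxin reductase, was lowest at 3.84 RPKM. Glrx5, a mitochondrial glutaredoxin of iron-sulfur cluster assembly, led the glutaredoxins at 36.0 RPKM, and Glrx2, another mitochondrial glutaredoxin, was lowest at 1.25 RPKM. Orders by RPKM rest on the deposited gene lengths. Glrx2, at 8772 bases, had 211 to 325 counts, more than the 72 to 141 of the glutaredoxin Glrx, at 1345 bases. The genes of glutathione synthesis and reduction were all low: Gsr, glutathione reductase, reached 2.60 RPKM and Gclm, the modifier subunit of the rate-limiting ligase, 0.933 RPKM. Hmox1, which breaks down heme, was at 2.03 RPKM. The regulators Nfe2l2 and Keap1 were near each other at 10.2 and 8.68 RPKM.

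**Figure D1:**
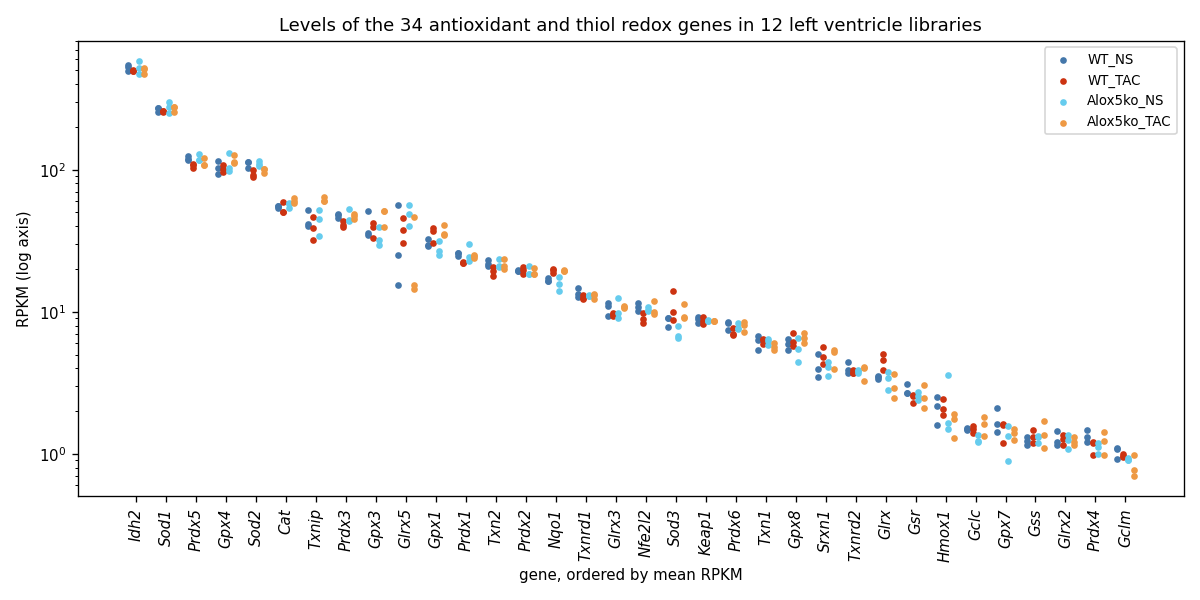
RPKM of each of the 34 genes in each of the 12 libraries, on a log axis, with genes ordered by mean and libraries coloured by group. Levels fall from 513 RPKM for Idh2 to 0.933 RPKM for Gclm, and the points of Glrx5 and Hmox1 scatter most within groups.

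Most members differed little between libraries of a group. The SD of log2 CPM between libraries of 1 group had a median of 0.13 over the members, against 0.18 over all genes tested. Of the 34 members 26 were under 0.2. An SD of 0.20, that of Glrx, was at or above the SD of 55.8% of all genes tested. Members and all genes were not matched for expression level. Keap1 was the steadiest at 0.07, with 37.6 CPM in its lowest library and 43.5 CPM in its highest. Txnrd1, the cytosolic thioredoxin reductase, and Cat were also at 0.07.

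Glrx5 was the exception, with an SD of 0.69, higher than in 98.3% of all genes. It was read at 50.6, 22.6 and 14.2 CPM in WT_NS 1, 2 and 3 and at 28.0, 42.1 and 35.5 CPM in WT_TAC. In Alox5ko it was read at 46.4, 53.1 and 39.3 CPM without TAC and at 13.6, 14.3 and 43.8 CPM with TAC. The highest and lowest library differed 3.90-fold, and low and high libraries occurred inside both WT_NS and Alox5ko_TAC. No comparison called it, and its difference of -0.96 with TAC in Alox5ko had an SE of 0.562 (adjusted p = 0.492). Hmox1 came next with an SD of 0.42: it was read at 6.63 CPM in Alox5ko_NS 3 and at 2.30 to 4.27 CPM in the 11 other libraries.

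Alox5ko_NS 3 gave the highest level of all 12 libraries for 12 of the 34 members, namely Sod1, Sod2, Gpx4, Prdx1, Prdx2, Prdx3, Prdx5, Prdx6, Txn2, Glrx3, Hmox1 and Keap1; of all genes tested, 15.7% were highest there. Sod1 was at 206 CPM there against 182 CPM in the next library. The median member lay 0.11 above its own mean on the log2 scale in Alox5ko_NS 3, and 0.08 below it in WT_TAC 1, where 6 members were lowest. Of all genes tested, 13.98% were highest in WT_TAC 1, and the share that was lowest there was not counted. The part of the mitochondrial share and of the cardiomyocyte markers in these levels was not tested.

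**Figure D2:**
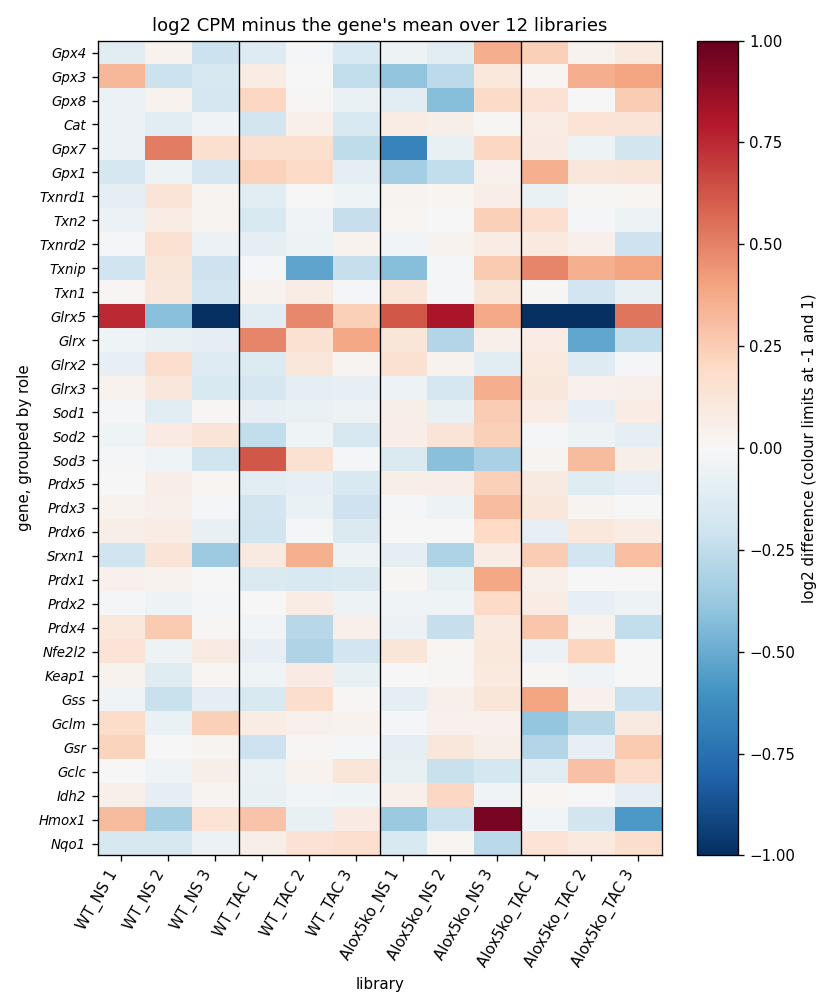
Colour gives log2 CPM of a gene in a library minus that gene's mean over the 12 libraries, clipped at -1 and 1, with genes grouped by role and black lines between groups of libraries. Alox5ko_NS 3 is red for 12 genes that peak there, and Glrx5 holds both red cells and cells at the lower colour limit inside WT_NS and Alox5ko_TAC.

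The first question was which redox genes differ between TAC and NS hearts. Taken over both genotypes, Sod3, Gpx1 and Nqo1 were higher and Sod2 was lower with TAC, and the other 30 members did not pass. The rises were 31.6% for Sod3, 23.7% for Gpx1 and 19.6% for Nqo1, and Sod2 fell by 13.0%. So 4 of 34 members were called (11.8%), against 5.1% of all genes tested. In the higher direction 3 of the 34 members were called, where 2.9% of all genes were. In the lower direction 1 of the 34 was called, where 2.19% of all genes were. At an unadjusted p under 0.05 there were 8 members, 4 higher and 4 lower, or 23.5%, against 19.3% of all genes. DESeq2 called 4 members, and they were the same 4 genes. The median fold of the members was -0.05 on the log2 scale, with 12 positive and 22 negative, beside 0.0007 over all genes.

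Nqo1 encodes a quinone reductase that uses NADH or NADPH and is a textbook target of Nrf2 (chromosome 8, 107388225 to 107403206, minus strand, GRCm38). It was read at 24.7, 24.7 and 26.5 CPM in WT_NS and at 28.7, 30.5 and 31.0 CPM in WT_TAC. The Alox5ko libraries gave 24.7, 27.9 and 22.9 CPM without TAC and 30.3, 29.5 and 31.2 CPM with TAC. Every one of the 6 TAC libraries lay above every one of the 6 NS libraries. The rise was 0.26 on the log2 scale (SE 0.0627, adjusted p = 0.0204), and it was 0.25 in WT (adjusted p = 0.226) and 0.27 in Alox5ko (adjusted p = 0.150) when each was tested alone. The call was lost without WT_NS 1 (adjusted p = 0.0548), without Alox5ko_NS 1 (adjusted p = 0.0533) or without Alox5ko_TAC 3 (adjusted p = 0.0526).

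Gpx1 encodes the cytosolic and mitochondrial glutathione peroxidase (chromosome 9, 108338903 to 108340343, plus strand). It was read at 41.5, 45.1 and 41.6 CPM in WT_NS and at 54.8, 53.0 and 43.8 CPM in WT_TAC. Values in Alox5ko were 36.8, 39.2 and 48.1 CPM without TAC and 59.4, 50.4 and 50.6 CPM with TAC. WT_TAC 3 fell within the range of WT_NS, while the Alox5ko groups did not overlap. Gpx1 rose by 0.31 (SE 0.0753, adjusted p = 0.0215), with 0.24 in WT (adjusted p = 0.360) and 0.37 in Alox5ko (adjusted p = 0.0946). Leaving out any of WT_NS 1, WT_NS 3, WT_TAC 1, WT_TAC 2, Alox5ko_NS 1, Alox5ko_NS 2 or Alox5ko_TAC 1 lost the call, with adjusted p-values up to 0.0698.

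Sod3 encodes the superoxide dismutase of the extracellular matrix (chromosome 5, 52363791 to 52371418). It was read at 33.0, 32.5 and 29.0 CPM in WT_NS and at 51.3, 37.1 and 32.9 CPM in WT_TAC. The knockout libraries gave 30.2, 25.0 and 26.7 CPM without TAC and 34.1, 41.6 and 34.9 CPM with TAC. WT_TAC 3 and WT_NS 1 were level with each other, and the Alox5ko groups did not overlap. The rise was 0.40 (SE 0.0961, adjusted p = 0.024), with 0.36 in WT (adjusted p = 0.269) and 0.43 in Alox5ko (adjusted p = 0.136).

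The high value of Sod3 in WT_TAC 1 came with the highest summed markers of fibroblasts (1318 CPM) and of endothelium (626 CPM) of all libraries. Summed markers of smooth muscle and pericytes were also highest there, at 1064 CPM, with WT_NS 1 close at 1062 CPM. Fibroblast markers summed to 855 to 1029 CPM in WT_NS and 684.5 to 796 CPM in Alox5ko_NS, and to 786 to 1318 CPM in WT_TAC and 781 to 929.6 CPM in Alox5ko_TAC. Of the 8 fibroblast markers 1, Lum, was called higher with TAC. None of the 8 endothelial, 8 smooth muscle and pericyte or 8 macrophage markers was called. Without WT_TAC 1 the rise of Sod3 was 0.29 and still called (adjusted p = 0.0378), and the value in WT alone was 0.15. It lost its call without WT_NS 3, Alox5ko_NS 2 or Alox5ko_NS 3 (adjusted p up to 0.0737), and without both Alox5ko_NS 3 and Alox5ko_TAC 2 (adjusted p = 0.106). The part of the marker levels in this rise was not tested.

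Sod2 (chromosome 17, 13007839 to 13018119) was the called member that fell. It was read at 381, 416 and 431 CPM in WT_NS and at 331, 381 and 352 CPM in WT_TAC. Levels in Alox5ko were 411, 429.7 and 465 CPM without TAC and 390.2, 380.4 and 369.7 CPM with TAC. WT_NS 1 and WT_TAC 2 were level, and the Alox5ko groups did not overlap. Sod2 fell by 0.20 on the log2 scale (SE 0.0553, adjusted p = 0.0406), with -0.21 in WT (adjusted p = 0.268) and -0.20 in Alox5ko (adjusted p = 0.244). This was the least stable of the 4 calls: it was kept in 4 of the 12 fits that each left out 1 library and lost without WT_NS 2 or 3, WT_TAC 1 or 3, Alox5ko_NS 2 or 3, or Alox5ko_TAC 1 or 3 (adjusted p up to 0.125). It was also lost without both Alox5ko_NS 3 and Alox5ko_TAC 2 (adjusted p = 0.0531). The summed cardiomyocyte markers ran from 151900 to 183700 CPM in the NS libraries and from 175900 to 186800 CPM in the TAC libraries, with none of 8 called.

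**Figure D3:**
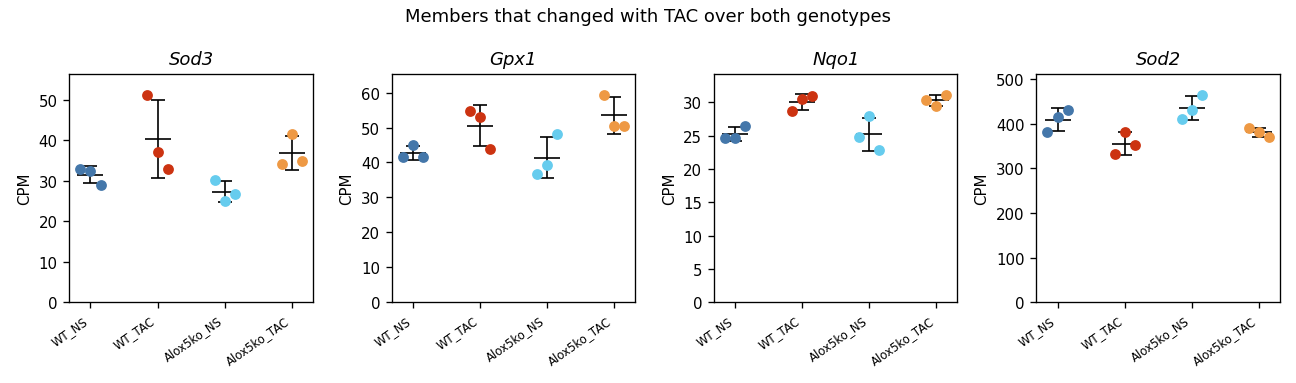
TMM-scaled CPM of Sod3, Gpx1, Nqo1 and Sod2 in each library by group, with the mean (horizontal bar) and SD of 3 libraries; each axis starts at 0. Nqo1 reads 28.7 CPM or more in all TAC libraries and 27.9 CPM or less in all NS libraries, while the WT groups of the other 3 genes meet or overlap.

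The remaining members did not pass. The widest spread between libraries went with Glrx5 at -0.34 (SE 0.396, adjusted p = 0.712) and Hmox1 at -0.22 (SE 0.217, adjusted p = 0.651), both larger in size than the value of Sod2. Prdx5 gave -0.15 (adjusted p = 0.120) and Prdx1, a cytosolic peroxiredoxin, -0.14 (adjusted p = 0.246). Srxn1, the sulfiredoxin that repairs overoxidised peroxiredoxins, gave 0.26 (adjusted p = 0.197), and it was called when Alox5ko_NS 3 and Alox5ko_TAC 2 were both left out. Of the 7 peroxiredoxin and sulfiredoxin genes, 6 had negative values, with a median of -0.09. None of the 5 thioredoxin genes, the 4 glutaredoxins or the 4 glutathione synthesis and reduction genes passed, with medians of -0.05, -0.04 and -0.0002. Nfe2l2 gave -0.14 (adjusted p = 0.254). Keap1 gave -0.02, with a 95% interval from -0.13 to 0.10. Cat gave 0.02, with an interval from -0.09 to 0.13.

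Within each genotype alone no member was called. In WT, edgeR called 0 of 34 members against 0.766% of all genes, 6 members were at an unadjusted p under 0.05 (4 higher, 2 lower; 17.6% against 11.9% of all genes) and DESeq2 called 0. Besides the 4 genes above, these were Glrx, the cytosolic glutaredoxin, at 0.41 (adjusted p = 0.299) and Nfe2l2 at -0.25 (adjusted p = 0.244). In Alox5ko, edgeR called 0 of 34 against 1.34% of all genes, 7 were at an unadjusted p under 0.05 (6 higher, 1 lower; 20.6% against 14.5%) and DESeq2 called 0. Besides the same 4 genes, these were Txnip at 0.44 (adjusted p = 0.250), Gpx3, the plasma glutathione peroxidase, at 0.44 (adjusted p = 0.263) and Gclc, the catalytic subunit of the glutathione ligase, at 0.28 (adjusted p = 0.342). Leaving out Alox5ko_NS 3 and Alox5ko_TAC 2 together, 1 member, Gpx1, was called in Alox5ko. The median fold of the members was -0.04 in each genotype, beside 0.005 over all genes in WT and -0.003 in Alox5ko.

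**Figure D4:**
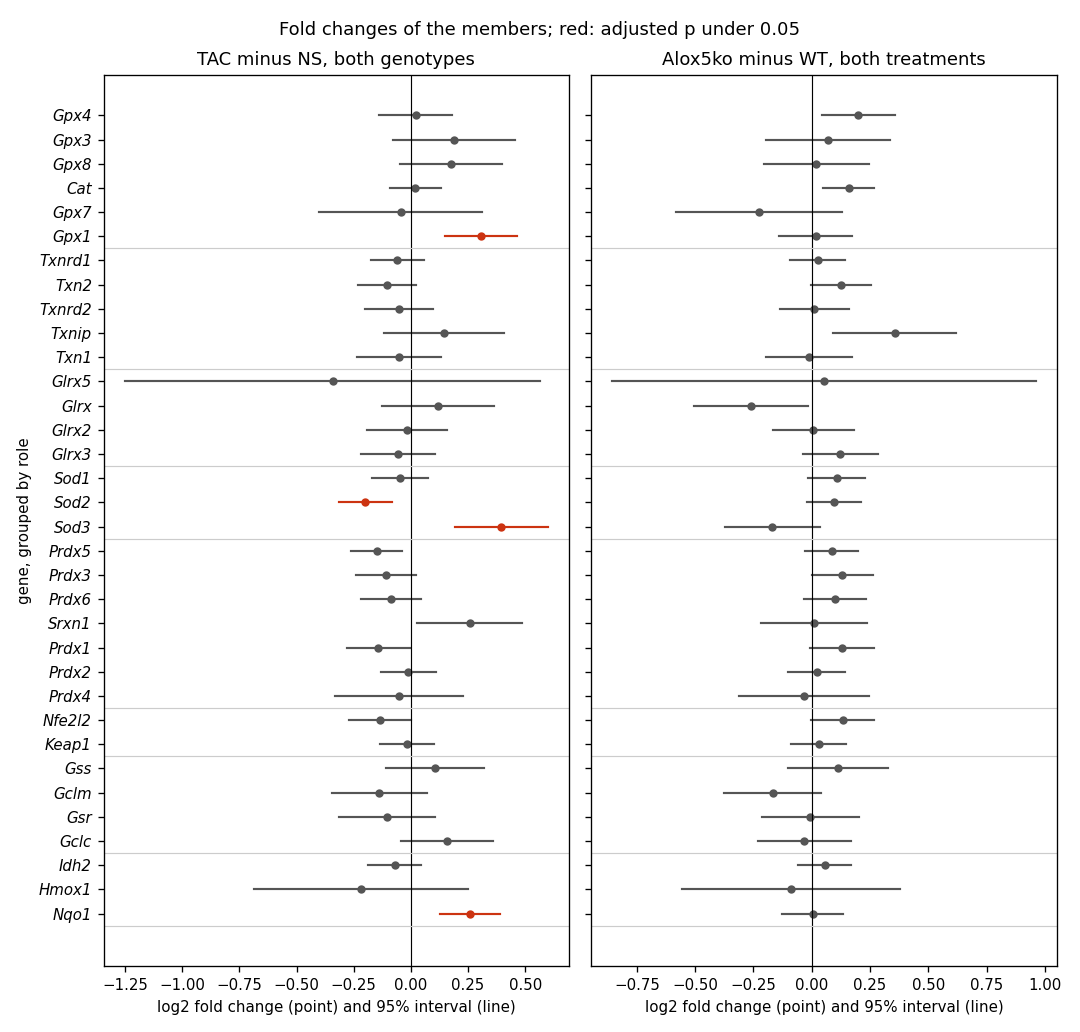
Log2 fold change (point) and 95% interval (line) of each member for TAC minus NS over both genotypes (left) and Alox5ko minus WT over both treatments (right), in role groups, with red for an adjusted p under 0.05. Sod3, Gpx1 and Nqo1 lie to the right and Sod2 to the left in the first panel, no gene is red in the second, and Glrx5 has the widest interval in both.

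The next question was whether loss of Alox5 goes with other levels of these genes. Without TAC no member was called: edgeR called 0 of 34 against 0.0386% of all genes, 0 members were at an unadjusted p under 0.05 against 6.36% of all genes, and DESeq2 called 0. The smallest p-values were those of Gpx4 (0.18), Gpx7 (-0.37), Cat (0.12) and Sod1 (0.13), with adjusted p-values of 0.824 to 0.828. Without Alox5ko_NS 3 the values were 0.02 for Gpx4, 0.03 for Sod1 and -0.57 for Gpx7, and without Alox5ko_NS 1 that of Gpx7 was -0.16. With library totals alone Cat gave 0.04. Summed markers did not overlap between these groups for 3 cell types, as Alox5ko_NS against WT_NS: endothelium at 353.5 to 465 against 502 to 554 CPM, fibroblasts at 684.5 to 796 against 855 to 1029 CPM, and smooth muscle and pericytes at 701 to 895.5 against 1013 to 1062 CPM. Their part in the values between genotypes was not tested. The median member gave 0.05, beside 0.002 over all genes. Over both treatments edgeR again called 0 of 34, against 0.154% of all genes, with 4 at an unadjusted p under 0.05 (11.8% against 9.77%) and 0 by DESeq2. Those 4 were Cat at 0.16 (adjusted p = 0.290), Txnip at 0.36 (adjusted p = 0.355), Gpx4 at 0.20 (adjusted p = 0.379) and Glrx at -0.26 (adjusted p = 0.480). The median member gave 0.03, and -0.02 when libraries were scaled by their totals without TMM factors.

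Under TAC, edgeR called 0 of 34 members between the genotypes, against 0.109% of all genes. At an unadjusted p under 0.05 there were 5 members (4 higher, 1 lower; 14.7% against 8.49% of all genes), and DESeq2 called 1, Txnip. The median member gave 0.08, beside -0.007 over all genes. Txnip was read at 125.8, 157 and 125 CPM in WT_NS and at 143, 99.9 and 123 CPM in WT_TAC. Its Alox5ko values were 108, 142 and 173 CPM without TAC and 202, 185 and 189 CPM with TAC. All 3 Alox5ko_TAC libraries lay above all 9 others. The difference under TAC was 0.66 on the log2 scale (SE 0.170), with an adjusted p = 0.296 by edgeR and an adjusted p = 0.00625 by DESeq2. With edgeR the adjusted p was 0.0413 when only the 6 TAC libraries were fitted and 2.65e-06 without the low-count filter, so the call depended on these settings and on the tool.

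Txnip (chromosome 3, 96557957 to 96561883) shares 606 of its 3123 exon bases with Gm15441 on the opposite strand. The libraries were directional, but whether counting used the strand is not given in the sources used here, so reads in the shared bases cannot be told apart. Gm15441 was read at 51.5, 70.0 and 55.3 CPM in WT_NS, at 61.7, 42.0 and 52.7 CPM in WT_TAC. Knockout values were 44.5, 62.3 and 70.9 CPM without TAC and 87.2, 80.7 and 82.1 CPM with TAC. It gave 0.68 under TAC (SE 0.18, adjusted p = 0.310), nearly the value of Txnip.

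The other 4 members at an unadjusted p under 0.05 were Glrx, Nfe2l2, Cat and Prdx3. Glrx was read at 4.59, 4.49 and 4.44 CPM in WT_NS, 6.62, 5.23 and 6.16 CPM in WT_TAC, and in Alox5ko at 5.12, 3.84 and 4.89 CPM without TAC and 4.97, 3.29 and 3.97 CPM with TAC. Its 3 WT_TAC values lay above all others, and the difference under TAC was -0.55 (SE 0.166, adjusted p = 0.315). Nfe2l2 was read at 42.4, 37.3 and 40.8 CPM in WT_NS, 36.4, 31.2 and 33.8 CPM in WT_TAC, and in Alox5ko at 41.8, 38.9 and 41.4 CPM without TAC and 37.0, 44.7 and 38.6 CPM with TAC. The 3 WT_TAC values were the lowest of the 12, and the difference under TAC was 0.25 (adjusted p = 0.431).

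Cat was read at 130.0, 153 and 132 CPM in WT_TAC and at 155, 162 and 161 CPM in Alox5ko_TAC, without overlap, and gave 0.20 (adjusted p = 0.432). Prdx3, the mitochondrial peroxiredoxin, was read at 59.3, 64.4 and 58.3 CPM in WT_TAC and at 72.8, 68.7 and 67.1 CPM in Alox5ko_TAC, and gave 0.20 (adjusted p = 0.570). These groups also did not overlap for Gpx4 (adjusted p = 0.595), Prdx1 (adjusted p = 0.682) and Glrx3 (adjusted p = 0.694). The share of all genes without overlap was not counted in any comparison, so a lack of overlap alone is not read as a difference. Endothelial markers summed to 522 to 626 CPM in WT_TAC and 468 to 529.9 CPM in Alox5ko_TAC, and smooth muscle and pericyte markers to 893 to 1064 and 722 to 871 CPM; their part in these values was not tested.

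**Figure D5:**
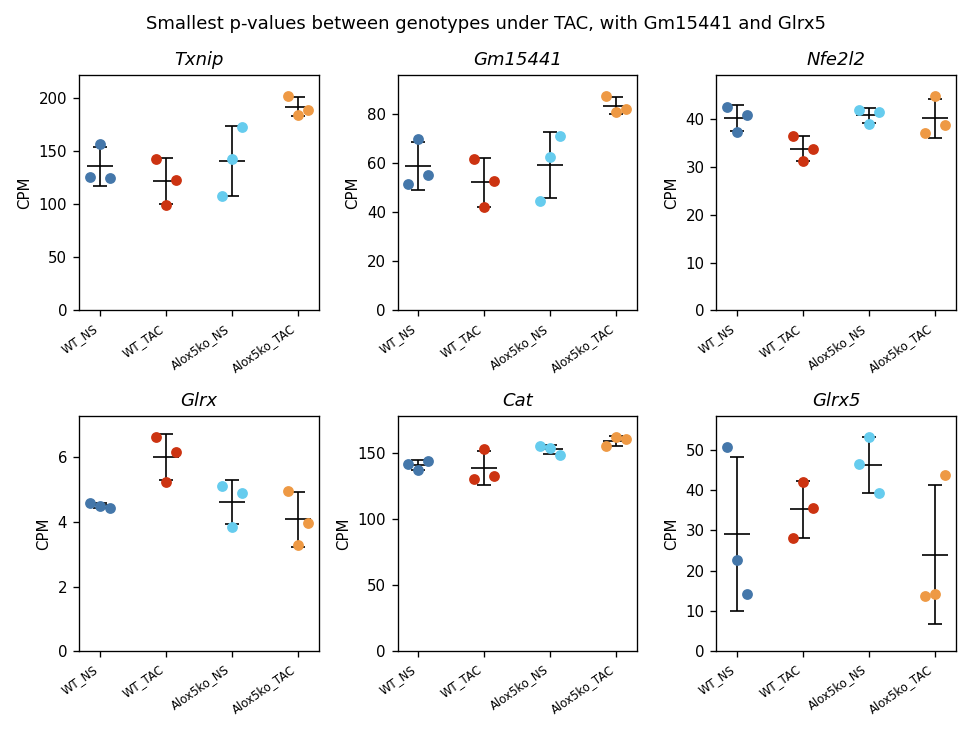
TMM-scaled CPM of Txnip, its antisense neighbour Gm15441, Nfe2l2, Glrx, Cat and Glrx5 in each library by group, with the mean (horizontal bar) and SD of 3 libraries; each axis starts at 0. Txnip and Gm15441 are highest in Alox5ko_TAC, Nfe2l2 is lowest and Glrx highest in WT_TAC, and with all 12 libraries and the low-count filter in the edgeR fit none of these genes was called.

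The interaction, which tests whether the TAC response differs between genotypes (Alox5ko less WT), called 0 of 34 members and 0% of all genes with edgeR. At an unadjusted p under 0.05 there were 2 members (5.88%, against 5.38% of all genes), and DESeq2 called 0. These were Glrx at -0.59 (adjusted p = 0.863) and Txnip at 0.60 (adjusted p = 0.878). Gpx3 gave 0.50 (adjusted p = 0.922) and Nfe2l2 0.23 (adjusted p = 0.957). For the genes called with TAC, the values were 0.01 for Nqo1, 0.13 for Gpx1, 0.07 for Sod3 and 0.01 for Sod2. A different response between genotypes was not shown for them. The median member gave 0.03, beside -0.006 over all genes.

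Other genes of the pathway were counted from 6 lists of 94 genes, of which 89 could be tested. With TAC over both genotypes, 6 of 89 were called (6.74%), 2 higher and 4 lower, near the 5.1% of all genes (2.9% higher and 2.19% lower). The 4 that fell came from the lists of NADPH supply and of glutathione transferases, whose medians were -0.09 and -0.06. These lists were chosen with earlier results of these data known, so a shared role of the 4 is not a result. Aldh1l2, a mitochondrial folate enzyme that makes NADPH, was read at 9.03 to 13.3 CPM in the 6 NS libraries and at 5.86 to 8.22 CPM in the 6 TAC libraries, without overlap, and fell by 0.65 (SE 0.101, adjusted p = 0.00111). Of 15 glutathione transferases tested, 3 were called, all lower. Gstm7 was read at 18.1 to 22.3 CPM in NS and at 11.9 to 16.7 CPM in TAC and fell by 0.54 (SE 0.091, adjusted p = 0.00184). Gstm2 was read at 72.0 to 80.8 CPM in NS and at 43.5 to 81.2 CPM in TAC, where Alox5ko_TAC 2 was high, and fell by 0.46 (SE 0.0831, adjusted p = 0.00377). Gstk1, the mitochondrial and peroxisomal form, was read at 14.5 to 21 CPM in NS and at 9.07 to 14.5 CPM in TAC and fell by 0.41 (SE 0.0997, adjusted p = 0.0204). The Gstm genes are close paralogs, so how reads were split among them is uncertain.

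Aldh1l2, Gstm7 and Gstm2 were called in all 12 fits that each left out 1 library. Gstk1 lost its call without WT_NS 3, WT_TAC 1, WT_TAC 3 or Alox5ko_TAC 1, and without both Alox5ko_NS 3 and Alox5ko_TAC 2. In WT alone 2 of 89 were called (2.25%, against 0.766% of all genes), Gstm2 at -0.69 (adjusted p = 0.0118) and Aldh1l2 at -0.75 (adjusted p = 0.0215). In Alox5ko alone 1 was called (1.12%, against 1.34% of all genes), Gstm7 at -0.60 (adjusted p = 0.0277). The WT calls were each lost without 3 of the 12 libraries (WT_NS 1, WT_NS 3 or WT_TAC 3 for Gstm2, and WT_NS 2, WT_NS 3 or WT_TAC 1 for Aldh1l2). Gstm7 in Alox5ko was kept in 7 of 12, lost without any 1 of the Alox5ko_NS libraries, Alox5ko_TAC 1 or Alox5ko_TAC 3.

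The 2 that rose were Sqstm1 and Nos1. Sqstm1, an autophagy receptor that binds Keap1, was read at 191 to 221.5 CPM in NS and at 218.5 to 248 CPM in TAC and rose by 0.21 (SE 0.0556, adjusted p = 0.0351), kept in 3 of 12 fits that each left out 1 library and lost without any WT_NS library, WT_TAC 1 or 2, Alox5ko_NS 1 or 2, or Alox5ko_TAC 1 or 3. Nos1, the neuronal nitric oxide synthase, had counts of 3, 5 and 0 in WT_NS, 12, 11 and 21 in WT_TAC, 12, 9 and 4 in Alox5ko_NS and 33, 4 and 23 in Alox5ko_TAC. It was called at 1.95 (SE 0.501, adjusted p = 0.0300) from these few counts, and the call was kept in 4 of 12 such fits (lost without WT_NS 1 or 3, WT_TAC 1 or 3, Alox5ko_NS 2 or 3, or Alox5ko_TAC 1 or 3).

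Between the genotypes 1 gene of the 89 (1.12%) was called in each comparison, and it was Nnt each time. The shares of all genes were 0.0386% without TAC, 0.109% with TAC and 0.154% over both treatments. The related genes were chosen with earlier results of these data known, so these shares do not show an excess among them. Nnt encodes the mitochondrial transhydrogenase that makes NADPH from NADH and the proton gradient. It was read at 166, 155.5 and 172 CPM in WT_NS, 148, 170.4 and 152 CPM in WT_TAC. Alox5ko libraries read 313, 345 and 240.1 CPM without TAC and 221, 239 and 223 CPM with TAC. All 6 Alox5ko libraries lay above all 6 WT libraries. Nnt was higher in Alox5ko by 0.86 without TAC (SE 0.103, adjusted p = 0.000763), by 0.54 with TAC (SE 0.103, adjusted p = 0.0489) and by 0.70 over both (SE 0.0731, adjusted p = 9.1e-05). The endothelial, fibroblast and smooth muscle markers were lower in Alox5ko_NS, opposite in direction to the first of these, and their part in it was not tested. The first and the last were called in all 12 fits that each left out 1 library. The call with TAC was kept in 3 of 12, was lost without any 1 of the WT_NS or Alox5ko_TAC libraries, WT_TAC 1 or 3 or Alox5ko_NS 1, and was lost with library totals alone. Nnt is known to differ between inbred mouse substrains, and the strain is not given in the sources used here.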

How the data were processed

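Polyadenylated RNA of 12 left ventricle libraries was sequenced from directional libraries, per the labels' protocols. HISAT2, DESeq2, mm10 and GRCh38 are named in the submitters' processing notes, without versions; the counting program, annotation release and strand setting are not given in the sources used here. The authors deposited raw counts per gene symbol (49492 rows, 28070 with a count) and RPKM values. All 336840 RPKM values were recomputed from the deposited counts and gene lengths within 0.1%. Positions were compared with GENCODE M21 (GRCm38): 42967 of 47209 symbols (91.01%) had the same span.

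Counts were tested with edgeR 4.0.16 (limma 3.58.1, R 4.3.3). Genes were kept by filterByExpr (minimum count 10, minimum total 15) and libraries scaled by TMM (factors 0.945 to 1.035). All 12 libraries entered a robust quasi-likelihood fit in which each group had its own coefficient, for 7 comparisons. Fold changes are log2, with SE and 95% intervals. The smallest p of an exact two-sided permutation of 3 and 3 libraries is 0.1, and none was run. The fit was checked on simulated data. Alternatives were DESeq2 1.42.0, other scalings, no filter, a replicate block, only the libraries compared and leaving out libraries.

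Members, related genes and markers were chosen with earlier results of these data known. Named were called members, the 4 smallest p-values per comparison, the highest and lowest level per role, Alox5 and called related genes; genes named outside this rule (Glrx5, Hmox1, Gm15441 and others given for their level or spread) were chosen after their values were seen. Replicates differed by more than sampling noise (chi-square per gene 5.39 to 31.8). Exon overlaps with another row occurred for 7 members, 6 of them on the opposite strand alone, and transcripts at least 95% identical over 300 bases (BLAST 2.17.0) for 6 members (Glrx2, Glrx3, Gpx4, Prdx1, Prdx2 and Txn1), whose counts are less certain.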

Additional observations from a re-analysis of the deposited data

How the results depend on the processing

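The gene values recomputed were those of the called genes and of the 4 members with the smallest p-values in each comparison, and none of these changed sign. Other printed values, such as those near 0 for Keap1 and Cat with TAC and the interaction values of the 4 called members, were not recomputed. The median of the members changed sign in some settings: it ran from -0.06 to 0.05 for TAC in Alox5ko, from -0.06 to 0.005 for TAC over both genotypes, from -0.03 to 0.09 between genotypes without TAC and from -0.02 to 0.06 over both treatments. It stayed positive between genotypes with TAC (0.01, without Alox5ko_TAC 1, to 0.10) and in the interaction (0.01 to 0.10). The 4 calls with TAC over both genotypes held with DESeq2, with both other scalings, without the filter and with a replicate block. The count of members called there was 1 to 4 when each library was left out in turn, and the count of genes 407 to 990. For the other comparisons those ranges were 17 to 182 genes for TAC in WT, 60 to 379 for TAC in Alox5ko, 2 to 7 between genotypes without TAC, 10 to 28 with TAC, 15 to 44 over both treatments and 0 to 1 for the interaction. Members called ranged from 0 to 1 for TAC in Alox5ko and were 0 in the others.

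In the same order of comparisons, DESeq2 called 285, 373, 24, 59, 99 and 1 genes, with 1 member (Txnip) between genotypes with TAC. Without the low-count filter 538, 756, 116, 252, 348 and 83 genes were called, and 1331 for TAC over both genotypes. Members called without the filter were 1 for TAC in WT (Sod3), 4 for TAC in Alox5ko (Gpx1, Gpx3, Sod3 and Txnip), 1 between genotypes with TAC (Txnip), 2 over both treatments (Gpx4 and Txnip) and 1 for the interaction (Txnip); the cause was not tested. With only the libraries compared, 215 genes were called for TAC in WT, 18 between genotypes without TAC and 39 with TAC, with 1 member (Txnip); comparisons over all 4 groups have no such fit. Leaving out Alox5ko_NS 3 and Alox5ko_TAC 2 together, chosen after seeing the data, gave 284, 386, 3, 30 and 13 genes in that order without the interaction, and 1 member (Gpx1) for TAC in Alox5ko.

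Same-numbered libraries did not deviate together (residual correlations of 18 pairs from -0.12 to 0.09), so the numbers were not taken as pairs. With the replicate block 110, 170, 6, 21, 773, 29 and 0 genes were called, the last 3 being TAC over both genotypes, Alox5ko over both treatments and the interaction, and 4 members, all with TAC over both genotypes. Low members such as Gpx7, with 31 to 61 counts, allow only large differences to be seen.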

Other observations

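The libraries that were low or high for Glrx5 were the same for a set of genes on other chromosomes, picked after the values of Glrx5 had been seen. Among 11629 genes with a mean log2 CPM over 1, Pearson's r with Glrx5 across the 12 libraries, a description over libraries of 4 groups, was over 0.9 for 21 genes. The highest were Tmed2 on chromosome 5 (0.987), Tmem160 on chromosome 7 (0.981), Gm10698 on chromosome 9 (0.976), Tprgl on chromosome 4 (0.975), Bri3 on chromosome 5 (0.967) and Dcun1d5 on chromosome 9 (0.965). Tmed2, which encodes a cargo receptor of the early secretory pathway, was read at 166, 127 and 103 CPM in WT_NS, 136, 169 and 153 CPM in WT_TAC. In Alox5ko it was at 172, 178 and 170.3 CPM without TAC and 108, 109 and 168 CPM with TAC. Its low libraries, WT_NS 2 and 3 and Alox5ko_TAC 1 and 2, were also those in which Glrx5 was at 22.6 CPM or less. Among the 33 other redox genes r ran from -0.56 (Prdx4) to 0.60 (Gsr), so no other redox gene followed Glrx5 as closely.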
